A study of Mus musculus with 4 samples.

Results

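The RNA of 2 fibroblast lines that differ in the transcription factor p63 was compared after 6 h of etoposide, a topoisomerase II poison that breaks DNA. The comparison uses 2 of the 4 arrays of the series, chosen by their labels: mouse embryonic fibroblasts carrying a retrovirus for p63, and the same kind of cells carrying a retrovirus for GFP, each given etoposide. The other 2 arrays hold both lines after mock treatment for 6 h and are set beside the main comparison. All 4 samples are DKO cells, that is, fibroblasts that lack both BAX and BAK, the effectors through which mitochondria are permeabilised in apoptosis. They came from C57BL/6 embryos at E13.5 and were transformed with SV40, whose large T antigen binds and inactivates p53. Etoposide was given at 10 µg per mL according to the treatment protocol; another label gives the same number per microlitre, and the files do not settle which is right. Which isoform of p63 was used, and from which species, is not stated in the labels used here.

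Each group is 1 array, so there is no spread between replicates, no test was made, and every difference is described by its size alone. What p63 does and any other difference between the 2 transduced lines cannot be told apart. In bulk RNA, fewer cells expressing a gene and less of its RNA in each cell cannot be told apart either.

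p63 is a relative of p53 that binds similar DNA sites. In stratified epithelia such as epidermis it is the factor that defines the basal layer, where it is needed for basal keratins, for desmosomes that join cell to cell, and for the integrin and laminin contacts that hold cells to the basement membrane. Interferon-stimulated genes belong to another program: interferon receptors activate transcription factors that bind interferon-stimulated response elements in promoters and switch on antiviral proteins, antigen presentation and the sensors that amplify the response.

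Values are log2 RMA signals from a whole-transcript array; 1 unit equals a doubling of signal. Of 19938 genes with a probe set of their own, 10698 reached 5.87, the 50th percentile of all values, on at least 1 of the 4 arrays and were kept. The medians of the genes kept were 7.69 for GFP mock, 7.60 for GFP etoposide, 7.48 for p63 mock and 7.68 for p63 etoposide. The p63 mock array stood furthest apart: on 78 genes it differed by at least 1 from every other array while the other 3 lay within 0.5 of each other, against 22 genes for GFP mock, 1 for GFP etoposide and 2 for p63 etoposide. Of the 13 fibroblast markers with a probe set, 11 were kept, none differed by 1 between the 2 etoposide arrays, and their median difference was -0.13; the summed linear signal of the list was 21135 with GFP and 19463 with p63. Within the list, Pdgfra (4.84 to 5.15) and Thy1 (5.56 to 5.64) were below the filter on both etoposide arrays. Some markers that define other lineages were below it on both arrays: Epcam and Cdh1 for simple epithelium, Ptprc for haematopoietic cells, Pecam1 for endothelium, Myod1 for skeletal muscle and Adipoq for adipocytes. Other members of these lists read above it on both, among them Cd14 (7.28 and 6.82) and Cd68 (6.78 and 6.87) of haematopoietic cells, Krt8 (6.22 and 5.93) and Krt7 (6.00 and 6.27) of simple epithelium, Egfl7 (6.16 and 6.06) of endothelium and Acta1 (6.51 and 7.26) of skeletal muscle, and none of them differed by 1. The summed linear signal of each other marker list went from 490.3 to 451.5 for simple epithelium (12 genes, 3 kept), 477.4 to 443.5 for haematopoietic cells (11 genes, 2 kept), 356.5 to 334.1 for endothelium (10 genes, 1 kept), 444.8 to 489.8 for skeletal muscle (10 genes, 4 kept), 208.0 to 205.4 for adipocytes (7 genes, 1 kept) and 499.6 to 479.2 for neural cells (10 genes, 2 kept), GFP first; any part of these cells in the results was not tested.

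The gene for p63 itself followed the labels. Trp63 read 5.59 on the GFP etoposide array, below the filter, and 9.29 on the p63 etoposide array, at least a 10.7-fold difference. The mock arrays read 4.87 and 8.75. Its relative Trp73, which encodes p73, differed by 0.64 after etoposide (5.59 and 6.24) and by 0.92 in mock. Bak1, the gene for BAK, was below the filter on all 4 arrays, between 5.41 and 5.71; whether its probes lie in the disrupted part is not given, so this checks nothing about the deletion.

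Between the 2 etoposide arrays, 203 genes (1.9%) were apart by 1 or more. With p63, 148 were higher (1.38%) and 55 lower (0.514%). Across all genes kept the median difference was 0.02 and the SD across genes 0.36, and the size of 95% of differences was below 0.66. Of the 148 higher genes, 23 were higher by at least 2 and 11 by at least 3. Of the 55 lower genes, 10 and 2 were that far below. The medians were alike in size, 1.28 for higher and -1.33 for lower genes. Only at the far end were higher genes larger: 4 reached a size of 4, against 0 lower genes. Many calls lie near the threshold, since 69 higher and 20 lower genes had a size between 1 and 1.25, while the nearest gene below it had a size of 0.999. Dim readings touch many calls: 53 higher genes were below the filter in GFP cells, 5 of them on both etoposide arrays, and 29 lower genes were below it in p63 cells, and 12 of the lower genes were below it on both etoposide arrays and were kept only because a mock array was brighter. With every reading below the filter raised to it, 121 higher and 31 lower genes still passed. A fold taken against such a dim reading is a lower bound, written "at least".

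**Figure D1:**
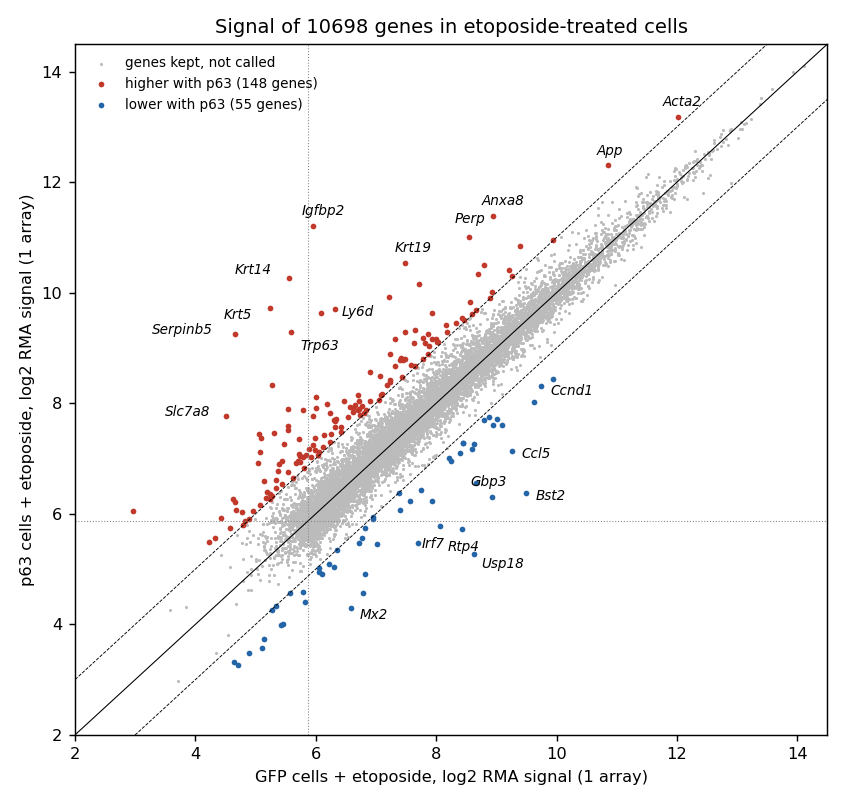
The log2 signal of 10698 genes on the GFP etoposide array (horizontal) against the p63 etoposide array (vertical), 1 point a gene. Red points are the 148 genes higher with p63 by at least 1, blue points the 55 lower, dashed lines mark a difference of 1 and dotted lines the filter at 5.87; 53 red points start from a GFP reading below the filter.

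Keratins of the basal epidermis were among the highest genes. Of the 14 keratins listed, 10 were kept. Of these, 6 were higher and none lower, against 1.38% and 0.514% of all genes kept. The median difference was 1.96. That median describes the genes kept only: 6 of the 10 were below the filter on both GFP arrays and were kept through the p63 arrays, and over all 14 the median was 0.59, beside -0.03 for all genes without a filter. Krt14, which pairs with Krt5 as the filament of basal keratinocytes, read 5.55 in GFP and 10.27 in p63 cells after etoposide, and 5.21 and 10.15 in mock. Krt5 read 5.24 and 9.72 after etoposide. In both genes the 2 p63 arrays sit together far above the 2 GFP arrays, at least 21.1-fold for Krt14 and 14.4-fold for Krt5. Krt16 and Krt17, which keratinocytes make under stress and in wounds, and Krt6a were higher by at least 5.52, 2.83 and 1.32-fold, and each was below the filter in GFP cells. Krt19, a keratin of simple and basal cells, was bright in both lines and read 7.48 and 10.54, an 8.30-fold difference. Krt15, another basal keratin, stayed just under the threshold at 0.90, and Krt8 of simple epithelia had a difference of -0.28 after etoposide and 1.01 in mock. Among the genes kept, Krt19, Krt14, Krt16 and Krt17 follow one another on the chromosome. Probes of such related genes can share signal, which was not tested here.

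**Figure D2:**
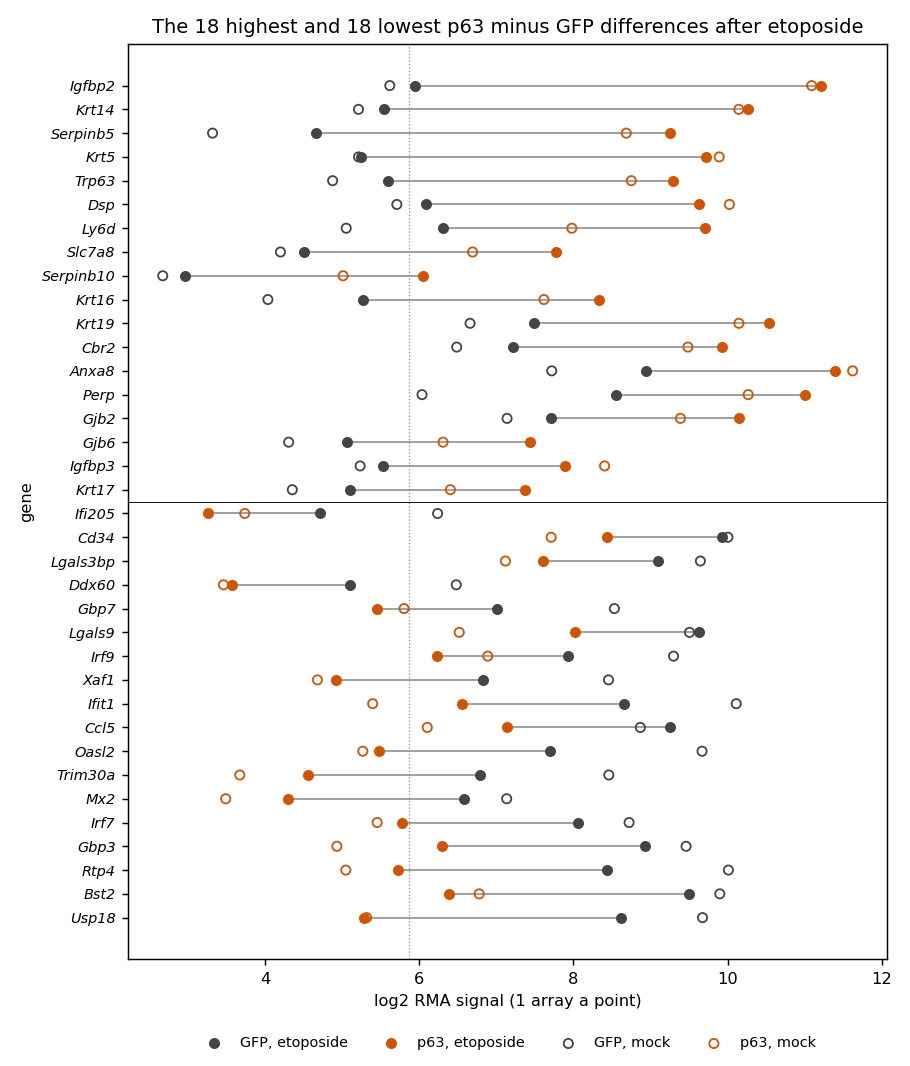
The 18 genes highest and the 18 lowest with p63 after etoposide, as log2 signal on all 4 arrays (filled etoposide, open mock; grey GFP, orange p63; dotted line, the filter at 5.87). In the highest genes the orange points of both treatments lie to the right of the grey ones, and in the lowest to the left.

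Parts of desmosomes and of the contact with the basement membrane were higher as well. Of 8 desmosome genes kept, 3 were higher and none lower, with a median of 0.60. Of all genes kept, 1.38% were higher and 0.514% lower. Among the 8, 1 was kept only through the p63 arrays, and over all 13 with a probe set the median was -0.0049. Dsp, desmoplakin, which ties keratin filaments to the desmosome, read 6.09 in GFP and 9.63 in p63 cells, an 11.6-fold difference. Perp, a desmosomal membrane protein that is also a target of p53 and p63, read 8.55 in GFP cells and was 5.47-fold higher with p63. In mock the arrays read 6.03 and 10.27, so the log2 difference was 2.45 after etoposide and 4.23 in mock. Pkp1, plakophilin 1, was higher by 1.04, and Jup, plakoglobin, by 0.73. Of 9 hemidesmosome and laminin-332 genes kept, 4 were higher and none lower, and the median was 0.95. Among the 9, 2 were kept only through the p63 arrays. Lamb3 and Lama3, chains of laminin-332, were higher by 1.81 and 1.13, though Lama3 was below the filter in GFP cells and differs by 0.60 with that reading raised. Itga6 and Itgb4, which together form the integrin of hemidesmosomes, were higher by 1.71 and 1.07. For Itga6 the arrays read 6.96 and 10.86 in mock but 8.79 and 10.50 after etoposide. Itga3 and Col17a1 differed by 0.95 and 0.91, just under the threshold.

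Other epithelial genes moved in part. Of 10 junction and polarity genes kept, only Gjb2 and Gjb6 passed; they encode connexins 26 and 30, and read 7.71 to 10.15 and 5.06 to 7.44, GFP to p63, with a list median of 0.12. Over all 21 epithelial transcription factors with a probe set the median difference was -0.15, and over the 7 kept 0.32. Zfp750, a zinc finger factor that acts downstream of p63 in keratinocyte differentiation, was the 1 gene of 7 epithelial transcription factors kept that passed. It read 5.79 in GFP mock, 7.32 in GFP etoposide, 6.41 in p63 mock and 9.15 in p63 etoposide, so its difference was 1.84 after etoposide and 0.63 in mock. Klf5, Gata3 and Grhl3 differed by 0.47, 0.40 and -0.31. Of 9 genes of squamous differentiation kept, 3 were higher; the median was 0.47 for those kept and 0.05 for all 25. Ly6d, a small surface protein, read 6.31 and 9.70, Anxa8, an annexin, 8.94 and 11.39, and Dmkn, a protein secreted in epidermis, was higher by at least 2.36-fold. Sfn, 14-3-3 sigma, differed by 0.70. In the 6 epithelial lists together, 19 of 53 genes kept were higher (1.38% of all genes kept were) and none was lower. A difference above 0 was found in 43 (54.4% of all genes kept had one). These counts include genes kept only through the p63 arrays. Epcam and Cdh1 of simple epithelia stayed below the filter on both etoposide arrays.

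Among 7 serpins kept, which are inhibitors of serine proteases or related proteins, Serpinb5 and Serpinb8 were higher and Serpinf1 lower. Of all genes kept, 1.38% were higher and 0.514% lower. Of the 7 serpins, 3 were kept only through the p63 arrays, and with dim readings raised 1 was higher and 1 lower. Serpinb5, maspin, read 4.66 in GFP and 9.26 in p63 cells after etoposide, at least a 10.5-fold difference, and 3.32 and 8.69 in mock. Serpinb8 was below the filter on both etoposide arrays (4.33 and 5.55). Serpinf1, the gene for PEDF, was lower by 1.30. Serpinb10, not in that list, read 2.96 and 6.05, a difference of only 0.18 with its GFP reading raised to the filter.

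Insulin-like growth factor binding proteins held the largest difference of all. Igfbp2, which binds IGF1 and IGF2 in the extracellular space, read 5.62 in GFP mock, 5.95 in GFP etoposide, 11.09 in p63 mock and 11.21 in p63 etoposide. The difference after etoposide was 5.27, a 38.5-fold change in signal, and the 2 lines did not overlap. Igfbp3 was higher by at least 4.05-fold (5.53 and 7.89) and Igfbp5 by 1.05, or 0.45 with its GFP reading raised. Igf2, a ligand, was higher by 1.25 after etoposide and by 0.56 in mock. Those 4 were the genes called among 14 of the IGF axis that were kept (1.38% of all genes kept were higher), with a list median of 0.17. Of the 14, 3 were kept only through the p63 arrays. With dim readings raised 3 were higher, and over all 17 with a probe set the median was 0.15.

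Few members of other growth factor and signalling pathways passed (1.38% of all genes kept were higher and 0.514% lower). Fgfr2, the receptor for FGF7 and FGF10 in epithelia, was higher by 1.60 (6.23 and 7.82), the only call among 13 FGF and EGF genes kept; its ligand Fgf7 was lower by 0.94 and Egfr differed by 0.41. In the Notch pathway 2 of 17 genes kept passed, both ligands: Jag1 read 7.94 and 9.63, and Dll1 5.14 and 6.59, a difference of 0.72 with the GFP reading raised. Hes1, a Notch target, Lfng, which glycosylates Notch, and the receptor Notch1 differed by 0.94, 0.93 and 0.73. Lgr4, a receptor for R-spondins, was higher by 1.06, the 1 call among 26 Wnt genes kept. None of 29 TGF-beta and BMP genes passed; the highest was Bmp4 at 0.98.

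**Figure D3:**
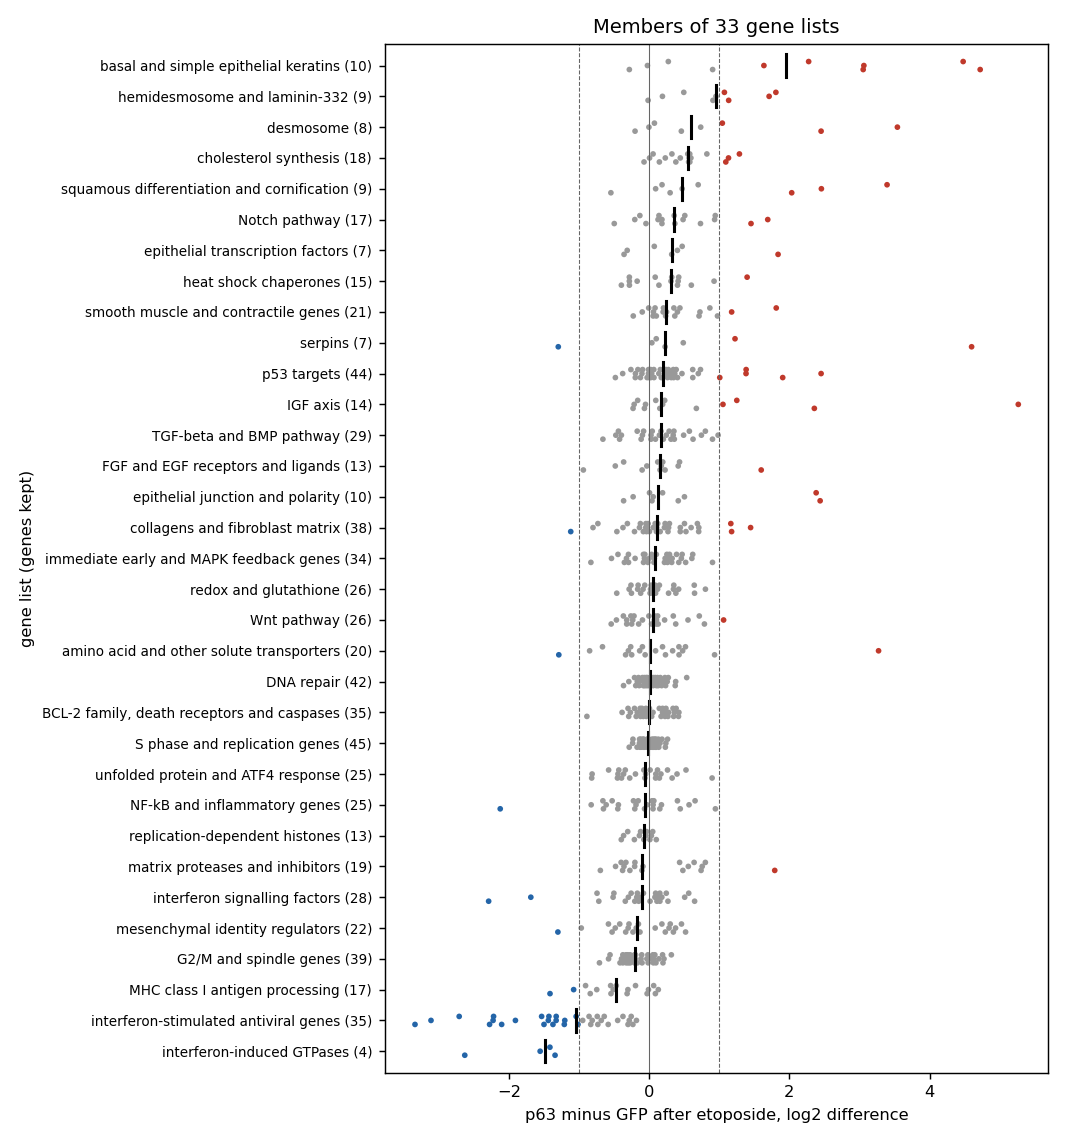
Differences, p63 minus GFP after etoposide, of the genes kept in each of 33 lists, 1 point a gene on a log2 axis; the black tick is the list's median and dashed lines mark a size of 1. Keratins, desmosome and laminin genes sit to the right and interferon-stimulated genes to the left, and most of the other lists centre near 0.

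Genes that p53 activates are of interest because p63 binds similar sites and etoposide damages DNA. Of 44 such genes kept, 5 were higher (1.38% of all genes kept were), none lower, and 31 had a difference above 0 (54.4% of all genes kept did), with a median of 0.20. In mock 6 were higher and 5 lower (2.42% and 3.76% of all genes kept were), with a median of -0.13. The median of all genes kept was 0.02 after etoposide and -0.14 in mock. The median level of the 44 was 7.78 in GFP mock, 9.10 in GFP etoposide, 7.55 in p63 mock and 9.48 in p63 etoposide. Whether p53 was active in these cells was not tested. Perp is described above. Ces2e, Ces2f and Ces2g are neighbouring carboxylesterase genes with related sequences. Ces2e read 7.86 in GFP and 9.24 in p63 cells after etoposide and 5.96 and 7.09 in mock. Ces2f read 6.01 and 7.91 after etoposide and 4.81 and 5.89 in mock, and Ces2g read 7.40 and 8.78 after etoposide and 4.72 and 6.13 in mock. In each of the 3, both etoposide arrays read above the mock array of the same line, and p63 read above GFP in both treatments. Ephx1, an epoxide hydrolase, was higher by 1.01. Sesn1, a sestrin, differed by 0.70 and Plk3, a stress kinase, by -0.38. Cdkn1a is not analysed here.

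Cell death, division and repair genes showed almost nothing past the threshold. None of 35 genes of the BCL-2 family, death receptors and caspases passed, and their median was 0.00; Tnfrsf1b, a TNF receptor, was the largest in size at -0.89, and Bnip3 differed by 0.42. None of 39 genes of G2/M and the spindle passed. Of them 28 were below 0 (45.5% of all genes kept were), with a median of -0.20. The lowest was Aurkb, a mitotic kinase, at -0.71. None passed among 45 S phase genes (median -0.01), 42 DNA repair genes (median 0.01), 34 immediate early genes (median 0.09) and 13 histone genes (median -0.08). Ccnd1 was different: cyclin D1, which drives cells out of G1, read 8.97 in GFP mock, 9.74 in GFP etoposide, 5.99 in p63 mock and 8.30 in p63 etoposide, lower by 1.44 after etoposide and by 2.98 in mock.

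Contractile and matrix genes were higher in part. Myl9, a myosin light chain, read 7.48 in GFP and 9.29 in p63 cells, and Acta2, smooth muscle actin, 12.01 and 13.18. They were the 2 higher genes of 21 contractile genes kept (1.38% of all genes kept were higher). Of the 21, 18 had a difference above 0 (54.4% of all genes kept did). Among 38 collagen and matrix genes kept, Col12a1 (1.45), Col18a1 (1.17) and Fbln5 (1.16) were higher and Nid2, a basement membrane linker, was lower (-1.12). Of all genes kept, 1.38% were higher and 0.514% lower. Adamts12, a metalloprotease, was higher by 1.79, the 1 call of 19 proteases and inhibitors kept. Of 22 mesenchymal regulators kept, only Hmga2, a chromatin protein, passed, at -1.30; Twist2 was at -0.97 and Snai2 at 0.46.

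Cholesterol synthesis genes shared a direction. Of 18 kept, 17 had a difference above 0 (54.4% of all genes kept did), 3 were higher by at least 1 (1.38% of all genes kept were) and the median was 0.56. Hsd17b7, an enzyme of the late pathway, read 7.81 in GFP and 9.09 in p63 cells after etoposide and 7.81 and 8.16 in mock. Hmgcs1, which makes the precursor of mevalonate, was higher by 1.13 (8.32 and 9.45), and Sqle, squalene epoxidase, by 1.09. In mock treatment none of the 18 passed and the median was 0.33, beside -0.14 for all genes kept. Insig1, which holds back the SREBP factors, differed by 0.82 after etoposide. The upstream stretch of Hmgcs1 holds a match to TCACNCCAC, the letters of a sterol response element, which is the site that SREBP factors bind; it is shown because that gene is the one with such a match among 14 cholesterol genes that have a promoter here (capitals mark the match). RefSeq gives its position on GRCm38.p6 as chr13:119690194-119690242, plus strand, 137 bases before the start of the gene.
Hmgcs1: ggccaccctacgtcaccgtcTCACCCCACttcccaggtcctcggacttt
Searched on both strands, those letters occur in 1 of these 14 genes (7.14%) and in 113 of 8613 genes kept with a promoter (1.31%). The first share rests on 1 gene, and the comparison was not tested.

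Of 20 solute transporters kept, Slc7a8, an amino acid transporter subunit, was higher by at least 3.75-fold (4.50 and 7.78), while Slc7a3, another, was lower by 1.29. Hspa4l, a chaperone of the HSP110 family, was the 1 call of 15 heat shock genes kept (7.78 and 9.17). None passed among 26 redox and glutathione genes (median 0.06) or 25 genes of the unfolded protein and ATF4 response (median -0.06). Several further large differences lay outside the lists. Cbr2, a carbonyl reductase, read 7.21 and 9.92. Gas6, a ligand of the AXL receptors, was higher by at least 3.28-fold. Stox2 read 6.00 in GFP and 8.11 in p63 cells, and a second probe set of that gene differed by 1.22. App, the amyloid precursor protein gene, read 10.85 and 12.30, and Cdkn1c, a CDK inhibitor, 7.23 and 8.90.

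Among the lower genes, those stimulated by interferon predominated. Of 46 antiviral genes listed, 35 were kept. All 35 were below 0 (45.5% of all genes kept were) and 19 were lower by at least 1 (0.514% of all genes kept were). The median was -1.04. Of the 35, 18 were below the filter on both p63 arrays and were kept through the GFP arrays, and over all 43 with a probe set the median was -0.85. Usp18, a protease that restrains interferon receptor signalling, read 9.67 in GFP mock, 8.62 in GFP etoposide, 5.31 in p63 mock and 5.28 in p63 etoposide, at least 6.73-fold lower after etoposide. Bst2, tetherin, which holds virus particles at the cell surface, read 9.50 and 6.38, an 8.67-fold difference. Rtp4 read 8.43 and 5.72, Ifit1, which binds foreign RNA, 8.65 and 6.55, and Oasl2 7.70 and 5.47. Both p63 arrays of these 5 genes lie below both GFP arrays. Ddx58 and Ifih1, which encode the RNA sensors RIG-I and MDA5, were lower by 1.37 and 1.33. In 6 of the 19, among them Rsad2 and Ifit3, both etoposide readings were below the filter, and 9 of the 19 still passed with dim readings raised, for which the median of the 35 was -0.66.

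**Figure D4:**
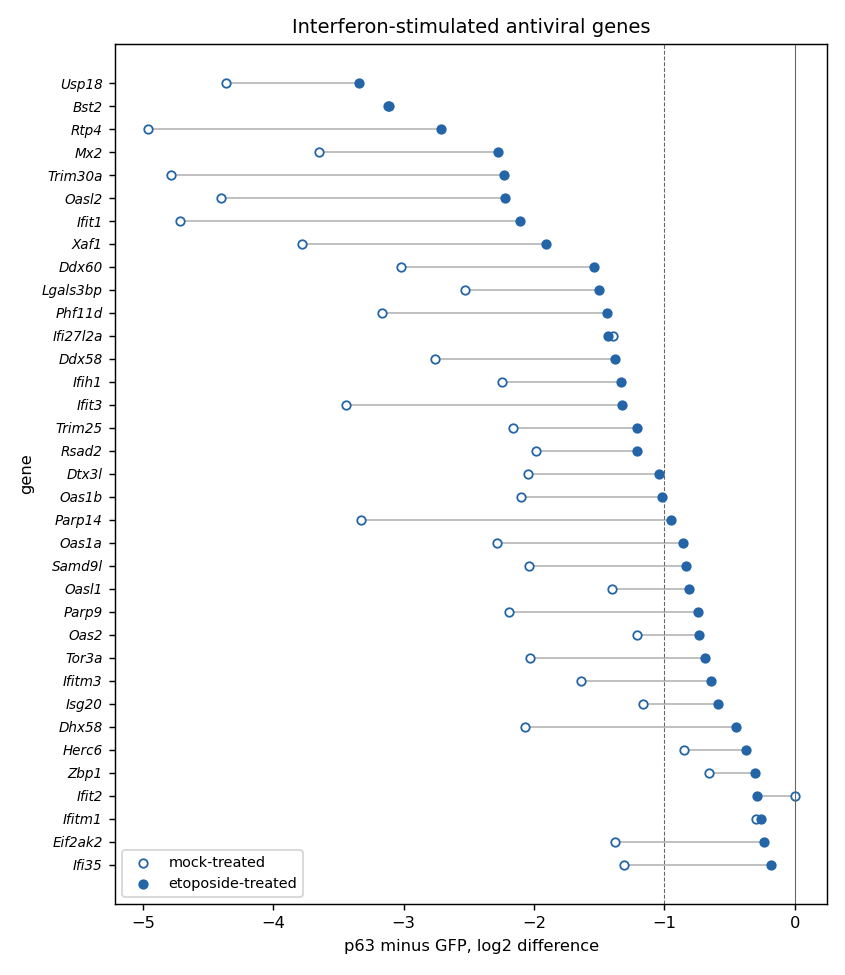
The p63 minus GFP difference (log2) of the 35 antiviral genes kept, open in mock and filled after etoposide, with a dashed line at -1. All 35 filled points are below 0, and 33 are nearer to 0 than the mock point of the same gene.

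The 4 interferon-induced GTPases kept, of 9 with a probe set, were lower by at least 1 (0.514% of all genes kept were). Their median was -1.49, and over all 9 it was -0.60. Of the 4, 2 were below the filter on both p63 arrays and were kept through the GFP arrays. Gbp3 read 8.93 in GFP and 6.30 in p63 cells, Gbp7 7.01 and 5.45, Irgm1 8.94 and 7.60, and Iigp1 was below the filter on both etoposide arrays. Of 28 interferon signalling factors kept, only Irf7 and Irf9 passed: Irf7, which drives the second wave of interferon genes, was lower by at least 4.58-fold (8.06 and 5.77), and Irf9, the DNA-binding part of the interferon complex, by 1.69 (7.92 and 6.23). Stat2 differed by -0.72.

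The upstream sequences of the called genes were searched for the letters of an interferon response element. The core, GAAA then any 2 bases then GAAA, searched on both strands from 250 bases before to 50 after each start, occurs in 14 of 41 lower genes with a RefSeq promoter (34.1%), 9 of 107 higher genes (8.41%) and 292 of 8613 genes kept (3.39%). It occurs in 11 of 24 antiviral genes with a promoter (45.8%). Of the interferon genes named above, Bst2, Ifit1, Ifit3, Rsad2, Ddx58, Ifih1, Gbp3, Gbp7 and Irgm1 hold it in this window, Oasl2, Irf7 and Irf9 do not, and Usp18, Rtp4 and Iigp1 were not searched, having no entry in the table used. Stretches of 5 genes with a match before the start are shown as examples, with the matched letters in capitals, from RefSeq on GRCm38.p6: Bst2 chr8:71537567-71537622 (minus strand), Ifit1 chr19:34640765-34640833 (plus), Gbp3 chr3:142559979-142560034 (plus), Gbp7 chr3:142530263-142530312 (plus) and Irgm1 chr11:48871421-48871470 (minus). They read 5′ to 3′ on the gene's own strand, so TTTC then 2 bases then TTTC is the core on the other strand. Matches that overlap are capitalised as 1 run.
Bst2: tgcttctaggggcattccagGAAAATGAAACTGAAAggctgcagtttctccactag
Ifit1: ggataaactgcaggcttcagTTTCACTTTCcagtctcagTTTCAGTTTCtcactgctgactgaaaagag
Gbp3: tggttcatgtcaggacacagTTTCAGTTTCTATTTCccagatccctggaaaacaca
Gbp7: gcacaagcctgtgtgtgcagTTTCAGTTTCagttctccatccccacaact
Irgm1: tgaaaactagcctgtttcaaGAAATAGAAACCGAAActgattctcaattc
A match describes letters in this window, and the comparison of shares was not tested. A pair of CATG cores with any 6 bases between, a simple form of a p53 family site, occurs in 1 of 107 higher genes (0.935%), 1 of 41 lower genes (2.44%) and 24 of 8613 genes kept (0.279%).

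Genes of antigen presentation and inflammation were lower in part. Of 17 MHC class I genes kept, 14 were below 0 (45.5% of all genes kept were), with a median of -0.47. Of the 17, 2 passed, where 0.514% of all genes kept were lower by at least 1. H2-Q4, a class I molecule, was at -1.42 (8.59 and 7.18). Psmb8, an immunoproteasome subunit, was at -1.08 (-0.94 with its p63 reading raised). H2-Q5, a class I gene outside the list, was lower by 1.32. These counts cover probe sets of a single gene: 4 more probe sets, each listing several class I genes and so assigned to none, had differences from -1.67 to -2.58. B2m, the common light chain, was bright throughout and differed by -0.91 (12.89 and 11.98). Tap1, the peptide transporter, differed by -0.03 after etoposide and by -1.61 in mock. Of 25 NF-kB and inflammatory genes kept, only Ccl5 passed; this chemokine read 9.26 and 7.13. Cxcl10, another interferon-induced chemokine, read 10.43 in GFP mock, 10.98 in GFP etoposide, 7.05 in p63 mock and 10.15 in p63 etoposide, so 3 arrays were high and the p63 mock array stood alone. In the 4 interferon and MHC lists together 27 of 84 genes kept were lower (0.514% of all genes kept were) and none higher. These counts include genes kept only through the GFP arrays.

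Outside those lists, Lgals9, a galectin, read 9.63 and 8.01. Cd34, a surface sialomucin of progenitors and fibroblasts, read 9.93 and 8.44. Lgals3 and Ptx3, a secreted pattern recognition protein, were lower by 1.18 and 1.10.

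Between the same 2 lines after mock treatment, 661 genes were past the threshold (6.18%), 259 higher (2.42%) and 402 lower (3.76%). The 2 comparisons share no array. In mock the median difference of all genes kept was -0.14 and the SD across genes 0.56. The p63 mock array had the lowest median signal of the 4 arrays (7.48) and, as given above, stood alone on 78 genes. What part of the mock counts and sizes comes from that array was not tested. Of the 148 genes higher after etoposide, 99 were also higher in mock (66.9% of the etoposide list and 38.2% of the mock list). Of the 55 lower genes, 52 were also lower in mock (94.5% and 12.9%). No gene was called in opposite directions. Sizes differed by side: the higher genes had a median of 1.28 after etoposide and 1.31 in mock, but the lower genes -1.33 after etoposide and -2.25 in mock, and 47 of 55 were smaller in size after etoposide. For the antiviral genes the median level was 7.97 in GFP mock and 6.79 in GFP etoposide, against 5.49 and 5.64 with p63, where both medians are below the filter. The summed linear signal of the list was 4107 in p63 mock and 6188 in p63 etoposide.

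**Figure D5:**
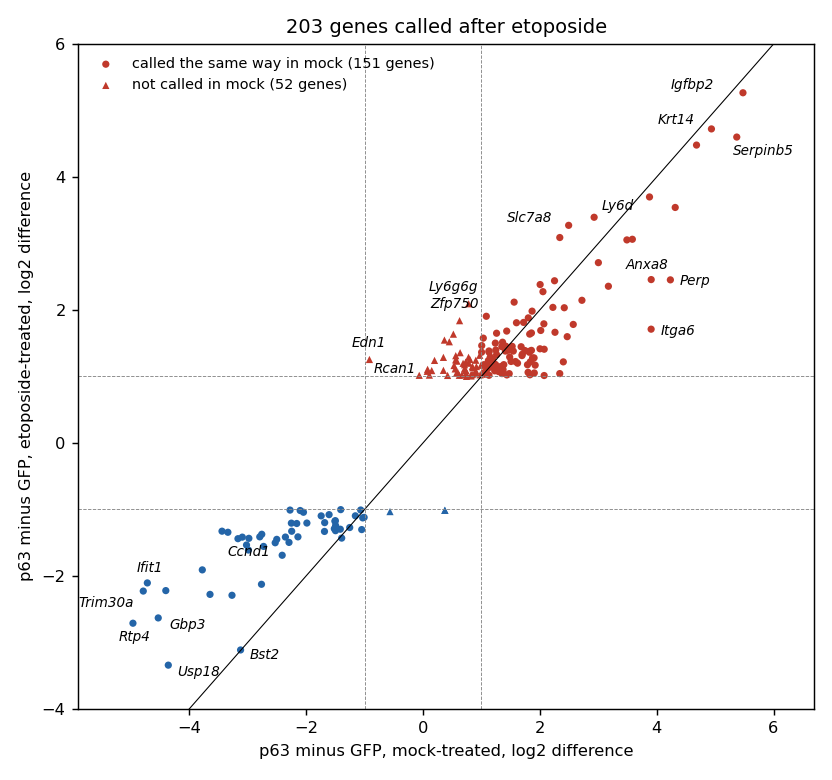
For the 203 genes called after etoposide, the p63 minus GFP difference in mock (horizontal) against that after etoposide (vertical), log2. Red genes are higher and blue genes lower with p63; circles are the 151 also called the same way in mock and triangles the 52 that were not; 47 of the 55 lower genes lie further from 0 in mock.

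Of the 49 genes higher only after etoposide, 37 had a mock difference of at least 0.5 the same way. Ly6g6g read 5.02 in GFP mock, 5.79 in GFP etoposide, 5.80 in p63 mock and 7.89 in p63 etoposide; here the p63 etoposide array alone was high. Coro2a, an actin-binding coronin, read 5.37, 5.71, 5.89 and 7.35 in the same order. Neu3, a sialidase, was higher by 1.24 after etoposide and 0.20 in mock, and Prnp, the prion protein gene, by 1.26 and 0.80. Edn1, the vasoconstrictor endothelin 1, read 7.70, 5.70, 6.79 and 6.95, so it was higher with p63 after etoposide (1.25) and lower in mock (-0.92). The 3 genes lower only after etoposide were Usp17lb, Vaultrc5 and Rnu3a, the last named after its values were seen; none of the 3 passed with dim readings raised. No test of the difference between treatments was possible. The largest gaps between the 2 differences were often in genes where the p63 mock array stood alone: Usp17ld read 7.63, 8.02, 11.76 and 8.37, Snrpg, a spliceosome subunit, 9.70, 10.06, 6.60 and 9.86, and Tns1, tensin 1, 7.64, 8.14, 9.96 and 7.68.

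Along the chromosomes, 28 of the 203 called genes stood next to another gene called the same way. They formed 12 runs among the 10691 genes kept that could be placed. How many runs as many genes would form if placed at random was not computed, so grouping was not tested. The 8 higher runs held 20 genes, among them Krt19, Krt14, Krt16 and Krt17 in a row, Krt6a beside Krt5, Gjb2 beside Gjb6, Igfbp2 beside Igfbp5, Ly6d beside Ly6g6g, and the 3 serpins Serpinb5, Serpinb10 and Serpinb8. The 4 lower runs held Ifit3 and Ifit1, Gbp7 and Gbp3, H2-Q4 and H2-Q5, and Trim30a and Usp17lb. Most of these are neighbours of 1 gene family, whose probes can share signal.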

How the data were processed

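Total RNA (Trizol) was amplified (NuGEN Ovation PicoSL WTA V2) and read on Affymetrix Mouse Gene 1.0 ST, 1 array a group, per the labels' protocols. The deposited values are log2 signals; the authors used Affymetrix Expression Console and RMA, tools that the submitters' processing notes name without a version. No genome build is given in the sources used here. They run from 1.27 to 14.4. RMA makes the arrays alike in distribution and compresses differences of dim probes; precision is limited by the number of arrays.

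Of 35512 probe sets, 21789 had 1 gene symbol in the 2016 platform annotation, 1621 several and 12102 were not listed. Symbols of 21698 were matched by Entrez ID to the RefSeq table (GRCm38.p6). Each gene took its probe set with the highest mean over 4 arrays. Genes whose highest reading was below the 50th percentile (5.87) were left out; a size of at least 1 was called. The 144 named genes were the 30 highest and 25 lowest, 15 highest called after etoposide only and all such lower ones, list members called (or the 2 largest), the 6 most different between treatments at each end, and Trp63, Trp73 and Bak1; further genes are list members or were named after their values were seen. The members and the 33 function and 7 marker lists were chosen with earlier results of these data known. Python 3.11.15, pandas 2.3.3 and numpy 2.4.6 computed the values; limma 3.58.1 in R 4.3.3 ran cyclic loess. The scripts were tested on simulated data with large known shifts in genes well above the filter. That checks the code and says nothing about dim calls or calls near the threshold. Alternatives were no filter, the 75th percentile, the filter over the 2 etoposide arrays, a 1.5-fold threshold, the median of probe sets, centred arrays, cyclic loess, and dim readings raised to the filter.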

Additional observations from a re-analysis of the deposited data

Results flagged for a closer look

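The p63 minus GFP difference of 4 called genes had the opposite sign in mock treatment; the difference between treatments was not tested, with 1 array a group. Edn1 differed by 1.25 after etoposide and -0.92 in mock, a gap of 2.17. Ankrd12 differed by 1.02 and -0.07, a gap of 1.08; its GFP etoposide reading was below the filter and the difference was 0.77 with it raised. Rnu3a and Vaultrc5, small RNA genes, each differed by -1.01 and 0.37, gaps of -1.39. With dim readings raised the etoposide difference of Rnu3a was -0.49, and Vaultrc5 was below the filter on both etoposide arrays (5.34 and 4.32).

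Probe sets not assigned to a single gene also passed the threshold. What the unlisted ones measure is unknown here, so they are not counted as genes. Of 5088 unlisted probe sets that reached the filter on at least 1 array, 219 (4.3%) were higher with p63 after etoposide, 44 of them also in mock, and 40 (0.786%) were lower, 12 of them also in mock. Many were dim: 54 of the 219 and 8 of the 40 were below the filter on both etoposide arrays. With dim readings raised 42 and 19 still passed, so most of the 219 higher calls rest on a dim reading. The genes called, 148 higher and 55 lower, became 121 and 31 with dim readings raised. Whether the lean of the dim unlisted probe sets also bears on that split of genes was not tested. The lowest unlisted probe set, 10502791, differed by -4.93 after etoposide, with 3.88 in p63 cells, and by -5.84 in mock (10.18 and 4.34). Of 823 probe sets with several symbols, 2 (0.243%) were higher and 12 (1.46%) lower, all of them also in mock.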

How the results depend on the processing

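No paired analysis was possible because each group is 1 array and no replicate number links groups; for the same reason no replicate could be left out. The 148 higher and 55 lower genes became 88 and 32 with the 75th percentile filter and 525 and 200 at 1.5-fold; raising dim readings left 31 lower. Genes higher in both treatments (99) became 63 and 296 with those 2 settings, and lower in both (52) became 32 and 132, or 31 with dim readings raised. The keratin median (1.96) was 0.59 with no filter, 3.77 at the 75th percentile and 1.07 with dim readings raised, and the antiviral median (-1.04) was -1.35 at the 75th percentile and -0.66 raised. With no filter 3 list medians changed sign: desmosome to -0.0049, epithelial transcription factors to -0.15 and FGF and EGF to -0.085. More or fewer dim genes enter under these filters by construction. Centring the arrays gave 119 higher and 65 lower genes, a split of 64.7% against 35.3% in place of 72.9% and 27.1%, and cyclic loess 145 and 54. Raising dim readings took 25 of 143 named genes below the threshold, centring 5 and loess 4.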

Other observations

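A few higher genes outside the lists, chosen after their values were seen, are given as values. They had readings above the filter on both etoposide arrays. Vegfd, a growth factor of lymphatic vessels, read 6.72 in GFP and 8.04 in p63 cells after etoposide, and Flt1, a VEGF receptor, differed by 1.04. Smoc2 and Htra1, secreted proteins, were higher by 1.36 and 1.20, and Sema3c, a semaphorin, by 1.11. Rcan1, an inhibitor of calcineurin, read 7.52 in GFP mock, 8.43 in GFP etoposide, 7.60 in p63 mock and 9.54 in p63 etoposide; the p63 etoposide array was the highest of the 4.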
